A study of Mus musculus with 10 samples.

Results

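Open chromatin around 7 genes of the Nodal and Lefty pathway was followed through the reprogramming of mouse fibroblasts towards pluripotency. The genes were Nodal, Tdgf1, Lefty1, Lefty2, Cer1, Smad7 and Skil. The list follows the pathway, and no measured value enters the rule. Their regions were found by position alone: every ATAC-seq peak lying within 30 kb before or after a gene, in any of the 10 deposited lists. Of 685776 peaks listed in all libraries, 380 met this rule. Overlapping peaks were merged over the libraries, which gave 88 regions out of 208851 in the genome, and 6 of the 88 lie in the windows of both Lefty1 and Lefty2.

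ATAC-seq reads open chromatin through a transposase that inserts sequencing adapters into accessible DNA, here in 50000 cells per library. The design has 5 stages with 2 libraries each, described by the series as biological replicates and all carrying 1 batch name. MEF are embryonic fibroblasts of mixed C57BL/6 x 129 strain that hold the OKSM cassette (Oct4, Klf4, Sox2, Myc; switched on by doxycycline) in Col1a1 and its activator M2rtTA in ROSA26, grown without doxycycline. DAY3, DAY6 and DAY9 are the same kind of cells after 3, 6 and 9 days in doxycycline (1 µg/ml) with ascorbic acid (50 µg/ml). Cells positive for SSEA1, a surface marker of early pluripotency, were sorted at DAY6 and DAY9, while MEF, DAY3 and ESC stayed unsorted. ESC is a single embryonic stem cell line, V6.5, kept with LIF on irradiated feeder cells and without doxycycline. It is a reference for pluripotency and not a later time point. Sorting cannot be told apart from DAY6 and DAY9, nor the absence of the cassette from ESC.

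Nodal is a secreted ligand of the TGF-β family that signals through activin receptors, SMAD2 and SMAD3, and the DNA-binding partner FOXH1. Its receptors need a membrane-bound co-receptor, Cripto, encoded by Tdgf1, and its range is limited by the secreted antagonists Lefty1, Lefty2 and Cerberus (Cer1). Smad7 blocks the receptors inside the cell, and Skil encodes SnoN, a corepressor bound to SMAD complexes. The Lefty genes and Smad7 are themselves targets of the signal, which makes them a negative feedback, and in mouse embryonic stem cells the pathway is active.

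Promoter sequence is shown for the ligand, the co-receptor and 1 antagonist, the only ones of the 7 genes for which it was available. Peaks reached the windows of the first 2 genes late in the course and none reached that of the third. The RefSeq promoter table (GRCm38.p6, the build named mm10 elsewhere) matched 3 of the 7 genes, and each window holds 250 bases before and 50 bases after the start. Capitals mark bases that lay under a peak in both DAY9 libraries. The windows are chr10:61417722-61418021 on the plus strand for Nodal, chr9:110946109-110946408 on the minus strand for Tdgf1 and chr4:82885102-82885401 on the minus strand for Cer1.
Nodal: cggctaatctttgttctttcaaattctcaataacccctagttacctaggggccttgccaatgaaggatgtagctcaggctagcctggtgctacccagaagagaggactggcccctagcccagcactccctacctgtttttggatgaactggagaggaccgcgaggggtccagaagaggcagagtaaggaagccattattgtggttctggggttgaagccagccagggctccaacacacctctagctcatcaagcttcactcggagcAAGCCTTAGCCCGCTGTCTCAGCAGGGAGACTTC
Tdgf1: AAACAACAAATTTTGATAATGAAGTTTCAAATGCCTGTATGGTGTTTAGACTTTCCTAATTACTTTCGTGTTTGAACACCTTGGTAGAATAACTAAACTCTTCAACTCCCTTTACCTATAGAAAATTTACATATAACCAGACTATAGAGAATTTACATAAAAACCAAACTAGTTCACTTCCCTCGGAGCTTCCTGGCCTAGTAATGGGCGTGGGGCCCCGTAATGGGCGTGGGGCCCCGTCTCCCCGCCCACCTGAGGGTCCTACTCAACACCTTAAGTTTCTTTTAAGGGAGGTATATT
Cer1: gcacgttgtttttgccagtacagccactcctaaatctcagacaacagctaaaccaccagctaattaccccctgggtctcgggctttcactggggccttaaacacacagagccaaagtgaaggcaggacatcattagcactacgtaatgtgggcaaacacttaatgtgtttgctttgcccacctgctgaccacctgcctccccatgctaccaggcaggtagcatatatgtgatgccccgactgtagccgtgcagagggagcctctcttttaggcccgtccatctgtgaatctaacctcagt

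The Nodal window held part of a peak in 3 libraries, both of DAY9 and ESC replicate 2. The DAY9 peaks covered only its last 34 shared bases, while the ESC replicate 2 peak covered 264 of its bases. The Tdgf1 window was covered in 4 libraries, those of DAY9 and ESC, over all 300 bases in 3 of them and over 277 bases in ESC replicate 2. No library had a peak in the Cer1 window. The GC content was 54.0% for Nodal, 41.7% for Tdgf1 and 51.7% for Cer1, against a median of 56.3% over all promoters in the table. Both strands were searched for the FOXH1 core AATCCACA, the SMAD palindrome GTCTAGAC, the SMAD box CAGACA, the KLF core CACACCC, the octamer ATGCAAAT and the SOX core ACAATG. These letters occur in 0.776%, 0.226%, 18.9%, 8.02%, 1.66% and 11.0% of the 21263 promoters of this length, in the same order. The only match was a SMAD box in Cer1, 213 bases before the start, and the Nodal and Tdgf1 windows held none of these letters.

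Depth has to be read beside every missing peak. The lists held 45497 (DAY3 replicate 2) to 88980 (ESC replicate 2) peaks, and no read totals come with them. The background pileup, the number of overlapping fragments that the caller took as the general background, served as relative depth and ran from 2.327 in DAY6 replicate 2 to 8.322 in MEF replicate 2. A summit on that background needed a fold of 3.61 to be listed in DAY6 replicate 2 and of 2.57 in MEF replicate 2. The summits around the 7 genes had pileups of 11 to 365 fragments with a median of 38, and 2 of them could not be recovered. A region without a peak is therefore below what that library could list, not shown to be closed. The DAY3 libraries differed from each other by little more than counting noise, with a noise ratio of 1.33 where chance alone gives about 1. The same held for the DAY9 libraries, at 1.42, so each of these pairs counted as 1 sample in the tests, while the other stages had ratios of 3.62 or more.

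The libraries also differed in marker genes. All 7 fibroblast markers (Thy1, Col3a1, Postn, Twist1, Twist2, Fbn1 and Fap) had a peak within 1 kb in both MEF libraries, and 4, 3, 4 and 3 had one in both libraries of DAY3, DAY6, DAY9 and ESC. The summed number of peaks at them was 36 and 29 for MEF and 9 and 11 for ESC, where Postn had none. Of 7 pluripotency markers 3 were marked in MEF, 3 in DAY3, 5 in DAY6, 7 in DAY9 and 6 for ESC, and Nanog had no peak in any MEF or DAY3 library. Endoderm markers (Gata4, Gata6, Sox17, Foxa2) were at 2 of 4 in MEF and 4 of 4 in DAY9 and ESC, and epithelial ones (Cdh1, Epcam, Esrp1) at 1 of 3 and 3 of 3. Trophoblast markers (Cdx2, Elf5, Tfap2c) were at 1 of 3 in MEF and 3 of 3 from DAY6, and primitive streak markers (T, Mixl1, Eomes) at 1 or 2 of 3 in every stage. The part of these cell types, or of feeder cells, in the results below was not tested.

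A region was called open at a stage if both libraries had a peak on it. The cells were assayed in bulk, so fewer cells with a region open and less opening in each cell cannot be told apart. By this rule 24 regions of the 7 genes were open in MEF, 22 in DAY3, 28 in DAY6, 36 in DAY9 and 32 for ESC. Of the 88 regions, 54 were open at 1 stage or more, 25 had a peak in a single library, and 10 had a peak in all 10 libraries. That last share, 11.4%, stands beside 9.42% of the 152144 merged regions within 30 kb of any protein-coding gene. With 2 libraries against 2 no exact test can pass a threshold of 0.05, so regions that appeared or disappeared are counted without a p-value and set beside the same count over those regions.

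Gained regions, open in ESC and without a peak in either MEF library, numbered 14, or 15.9% against 14.7% in general. Lost regions, open in MEF and without a peak in either ESC library, numbered 7, or 7.95% against 10.8%. Transient regions, open at DAY3, DAY6 or DAY9 only and without a peak in any MEF or ESC library, numbered 5, or 5.68% against 9.84%. These shares lie near the general ones, so the numbers say nothing particular about the pathway. Tdgf1 held 5 of the gained regions, Lefty2 3, and Nodal, Lefty1 and Smad7 2 each, with 1 region shared by the Lefty genes, while Skil held 1 and Cer1 none. All 7 lost regions lay at Smad7 (3), Skil (3) and between the Lefty genes (1). When every list was shortened to the same 45497 strongest peaks, 7 regions were gained and 9 lost, and 5 of each were among those just counted.

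Of the 14 gained regions, DAY3 opened 3, DAY6 another 2, DAY9 another 3 and ESC the last 6. Step by step, DAY3 gained 3 regions over MEF (3.41% against 5.62% in general) and lost 7 (7.95% against 10.1%). DAY6 gained 4 over DAY3 (4.55% against 5.33%) and lost 2 (2.27% against 1.54%). DAY9 gained 6 over DAY6 (6.82% against 5.73%) and lost 0, where 0.923% were lost in general. ESC gained 6 over DAY9 (6.82% against 7.78%) and lost 5 (5.68% against 9.64%). The gained regions were 413 to 2333 bp wide with a median of 909 bp, and 3 of them, as merged over all libraries, lay over a gene start, 2 inside a gene and 9 outside. Of those 3 starts (Nodal, Lefty1 and Tdgf1), that of Tdgf1 was under a peak in both ESC libraries, that of Nodal in ESC replicate 2 alone and that of Lefty1 in neither. None of the 7 lost regions lay over a start, and 3 were inside a gene.

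The amount of open chromatin per gene was measured as base pairs under peaks within 30 kb, and its order over the stages with a trend index. The index is the share of sample pairs from different stages in which the later stage was higher, less the share in which it was lower, so that 1 is a rise in every pair, with ESC placed last. Over 21063 genes tested with the two-sided exact Jonckheere-Terpstra permutation test on 8 samples, 803 genes (3.81%) had a higher and 40 (0.190%) a lower trend at an adjusted p of 0.05. The median index of all genes was 0.32 and 74.8% were above 0, beside a median of 0.36 for the 7 genes. None of the 7 genes passed the adjusted threshold, and 3 (Nodal, Tdgf1 and Lefty2) had an unadjusted exact p under 0.05, as did 23.2% of all genes. With every list scaled to its total base pairs under peaks the median of all genes was -0.04, beside 0.32 without scaling.

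**Figure D1:**
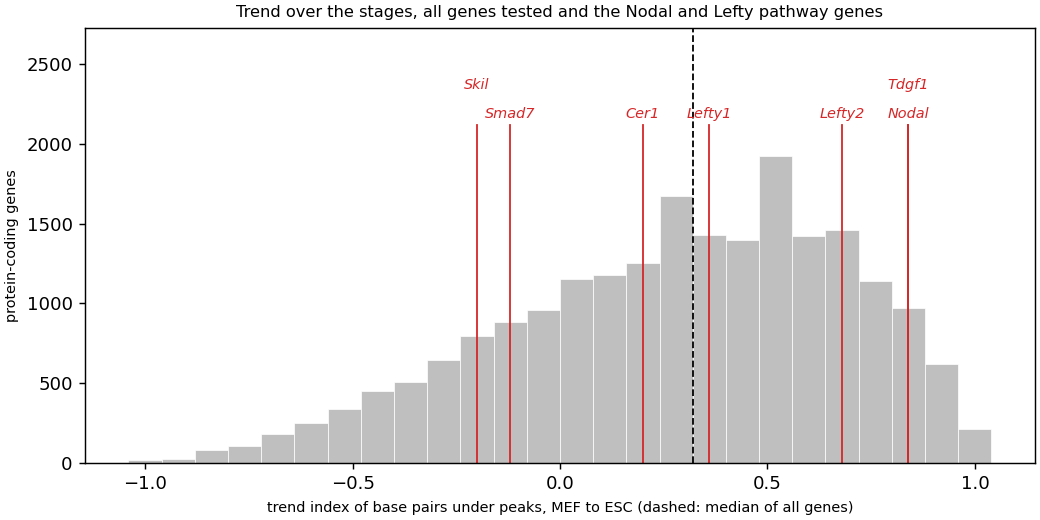
Histogram of the trend index of base pairs under peaks within 30 kb for all protein-coding genes tested (x axis, index from MEF to ESC; y axis, number of genes), with the 7 pathway genes as red lines and the median of all genes, 0.32, as a dashed line. Nodal and Tdgf1 lie at 0.840 and Lefty2 at 0.680, right of the median, while Skil at -0.200 and Smad7 at -0.120 lie left of it.

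**Figure D2:**
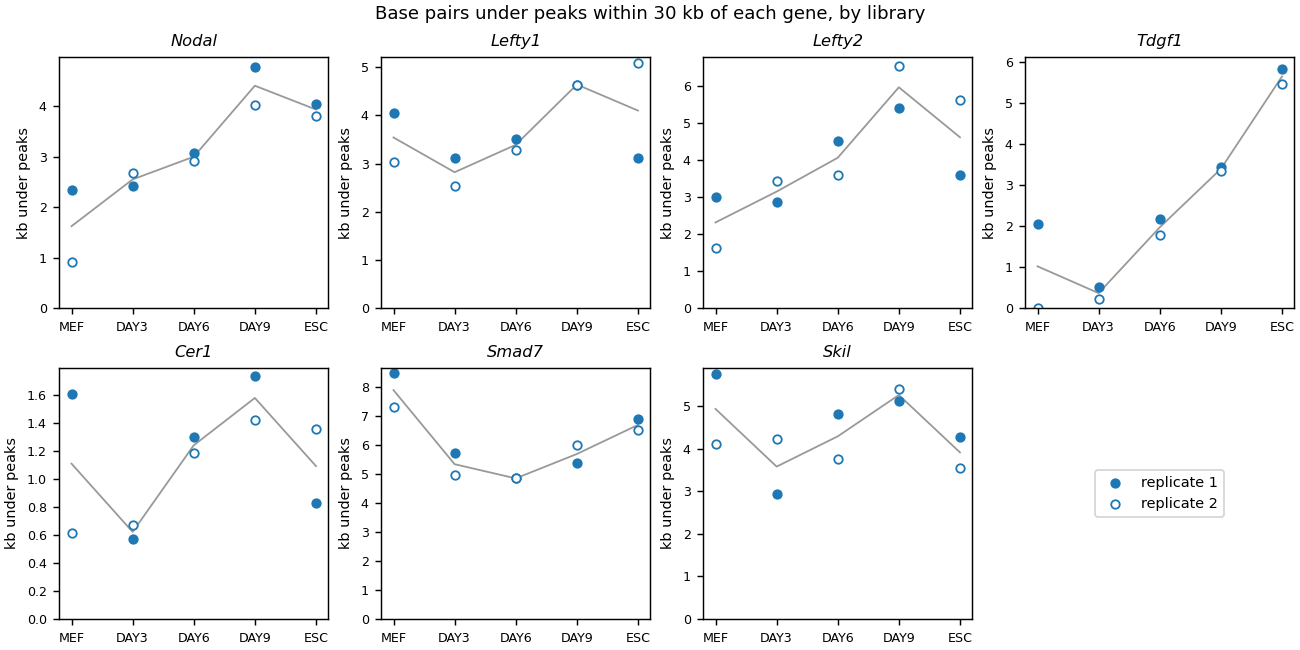
Base pairs under peaks within 30 kb of each gene (y axis, kb, starting at 0) by stage (x axis), with replicate 1 as filled and replicate 2 as open circles and a line through the stage means. Tdgf1 lies higher at each stage after DAY3, from 511 and 232 bp to 5839 and 5476 bp in ESC, while Smad7 is highest in MEF.

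Nodal, the ligand, lies at chr10:61417972-61425338 (mm10, plus strand). It gained a region on its upstream flank, listed from DAY3, and another at its start, listed from DAY9. The base pairs under peaks within 30 kb were 2337 and 910 for MEF, 2423 and 2674 for DAY3, 3075 and 2919 for DAY6, 4773 and 4028 for DAY9, and 4048 and 3811 for ESC. The libraries of DAY9 and ESC were all above those of the 3 earlier stages. The trend index was 0.840 with p = 0.00675 in the exact permutation test, and the Benjamini-Hochberg adjusted p over all genes was 0.0755. The adjusted p ran from 0.0190 to 0.740 over 18 alternatives and passed the threshold in 2 of them. With the lists shortened to equal length or scaled to their total, the index of Nodal was 0.28.

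The most regular Nodal region was 1.5 kb upstream of the start (chr10:61415478-61417411). It had no peak in either MEF library and a peak in all 8 later ones, with the authors' fold at 4.53 and 4.87 for DAY3, 5.83 and 7.07 for DAY6, 7.07 and 6.58 for DAY9, and 6.42 and 5.52 for ESC. It was gained with lists of equal length too. In the DAY3 libraries it was made of separate smaller peaks, the nearer of which ended 859 and 880 bp before the start. From DAY6 each library had a single broader peak. That peak ended 561 to 870 bp before the start in DAY6 and DAY9, and 1254 and 1046 bp before it in ESC.

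At the start of Nodal itself, peaks were listed only from DAY9. Peaks over it or inside the gene near it were listed in DAY9, at folds of 3.05 and 2.25, and in ESC, at 2.47 and 3.16, and in no library before. Only the ESC replicate 2 peak crossed the start. The DAY9 peaks began 11 and 16 bp after it, and the ESC replicate 1 peak lay 538 to 1070 bp inside the gene. These folds are low, and with lists of equal length this region was open at no stage. A summit on the general background needed a fold of 3.37 and 3.61 to be listed in DAY6, and of 2.64 and 2.63 in DAY9. Whether the start opened later, or was below what the earlier libraries could list, cannot be told.

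A further element 7.6 kb upstream (chr10:61410072-61410595) was transient. It had a fold of 3.67 in DAY3 replicate 2, of 4.49 and 6.40 for DAY6 and of 6.02 and 6.41 for DAY9, and no peak in MEF, DAY3 replicate 1 or ESC. A neighbouring peak 8.1 kb upstream, which did not overlap it, was listed in DAY9 replicate 2 and ESC replicate 1 only. The region of that peak ends at chr10:61410031. With peaks up to 250 bp apart merged, both would be 1 region with a peak in ESC replicate 1. The transient call thus rests on keeping them apart. By contrast, a region 18.3 kb upstream had a peak in 9 of 10 libraries, at folds of 2.94 to 6.91, and was missing only in DAY6 replicate 1. The strongest peak of the window, 27.3 kb downstream, was present in all 10 libraries at folds of 8.76 to 16.2, and it lies at the start of a neighbouring gene, Eif4ebp2, which encodes a translation repressor.

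Tdgf1, the co-receptor gene, lies at chr9:110939608-110946158 (mm10, minus strand) and was the only one of the 7 genes without an open region in MEF. The base pairs under peaks were 2052 and 0 for MEF, 511 and 232 for DAY3, 2170 and 1783 for DAY6, 3446 and 3361 for DAY9, and 5839 and 5476 for ESC. Every library from DAY9 and ESC was above every earlier one, and the MEF libraries disagreed. The trend index was 0.840, with p = 0.00675 in the exact permutation test and an adjusted p of 0.0755, which ran from 0.0190 to 0.184 over 18 alternatives. Without MEF replicate 1 the index was 1.0 and the adjusted p of the exact test 0.0465. It was 0.0190 with all 10 libraries counted separately, so the call turns both on that library and on averaging the DAY3 and DAY9 pairs. Scaled to list totals, the index was 0.92 with an adjusted exact p of 0.0643.

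At the Tdgf1 start, chromatin opened at DAY6 (chr9:110945985-110948317). The highest fold there was 6.23 and 4.72 for DAY6, 9.46 and 8.53 for DAY9, and 4.90 and 5.18 for ESC, and neither MEF nor DAY3 had a peak. The DAY6 peaks ended 439 and 562 bp before the start, and only in DAY9 and ESC did a second peak lie over the start itself. The capitals in the sequence above mark the cover of the start for DAY9 only. This region was gained with lists of equal length as well.

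ESC added a set of Tdgf1 regions that no other stage had. They lay 1.2 kb downstream of the gene, with folds of 4.17 and 3.42, and upstream at 5.4 kb (2.49 and 2.36), 14.6 kb (7.35 and 3.67) and 19.2 kb (6.09 and 3.39). The upstream 3 lie in the neighbouring gene Lrrc2, the one at 5.4 kb at its start. With lists of equal length none of these 4 was open in ESC. A region 8.1 kb upstream, also in Lrrc2, had a peak in every library but MEF replicate 2, at folds of 3.03 to 5.95. One 28.4 kb upstream was listed in DAY9 only, at 5.76 and 4.78.

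**Figure D3:**
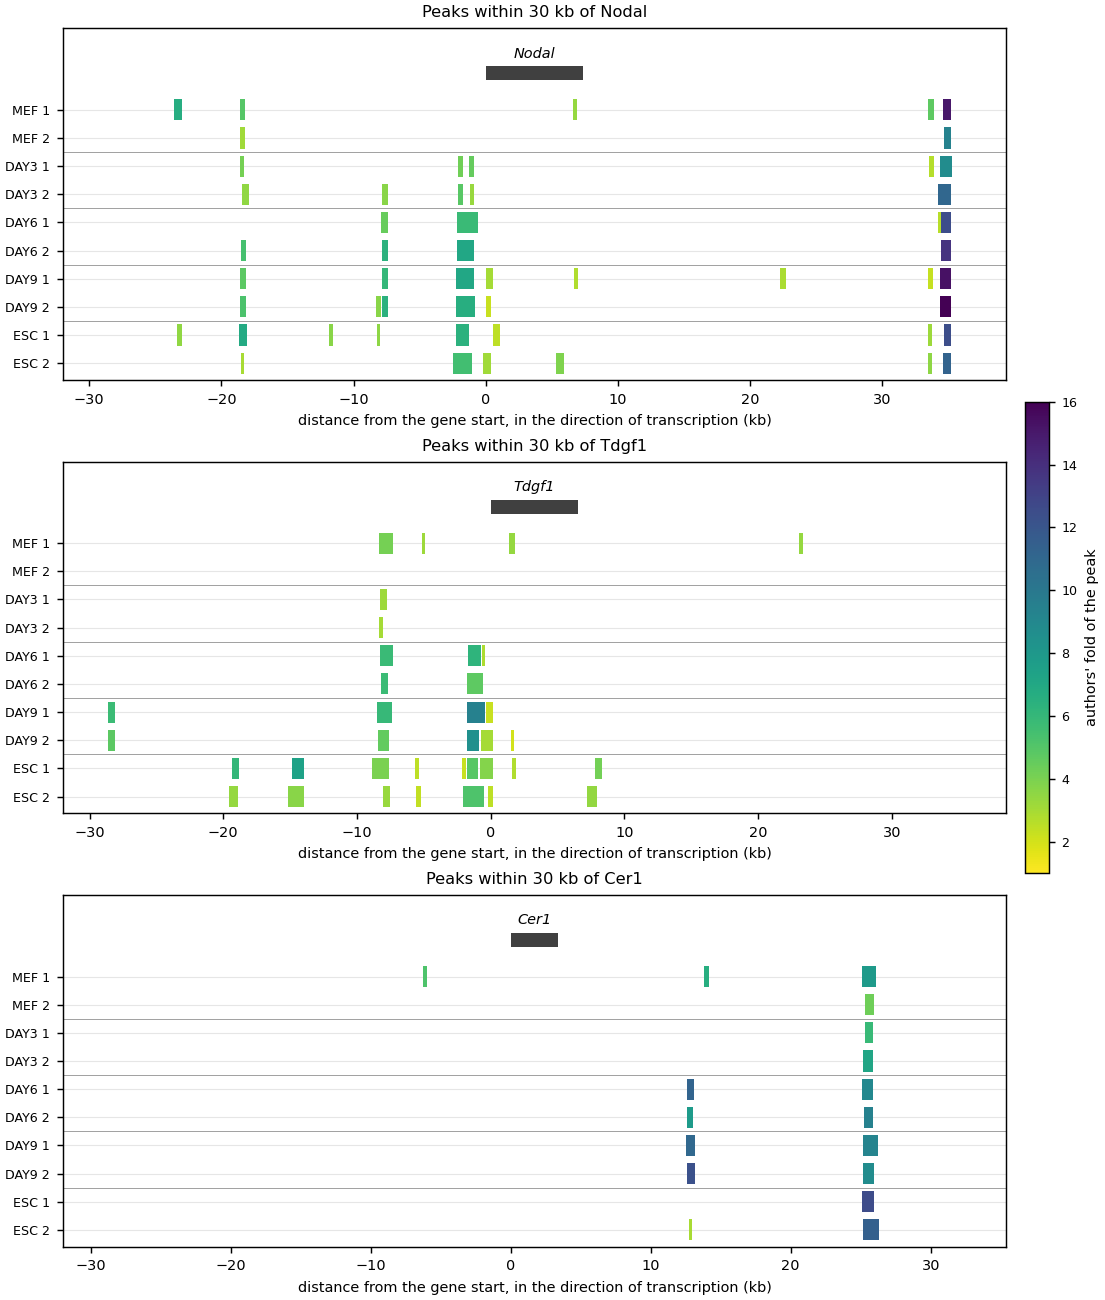
Peaks within 30 kb of Nodal, Tdgf1 and Cer1 in each of the 10 libraries (rows), by distance from the gene start in the direction of transcription (x axis, kb), coloured by the authors' fold, with the gene as a dark bar. Peaks just upstream of Nodal begin at DAY3 and those of Tdgf1 at DAY6, and no peak lies over Cer1 in any library.

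Lefty1 and Lefty2 lie beside each other on chromosome 1, Lefty2 at chr1:180893108-180899107 and Lefty1 at chr1:180935022-180938401 (mm10, both read as plus strand). Both encode secreted proteins that block Nodal and its co-receptors. Of the 13 regions of Lefty2, 3 were gained and 1 was lost, beside 14.7% and 10.8% in general. The lost region and 1 of the gained ones lie in the Lefty1 window too. Base pairs under peaks of Lefty2 were 3012 and 1623 for MEF, 2867 and 3431 for DAY3, and 4524 and 3599 for DAY6. They were 5393 and 6531 for DAY9 and 3595 and 5632 for ESC. The ESC libraries spread over the range of DAY6 and DAY9. The trend index was 0.680, with p = 0.0385 in the exact permutation test and an adjusted p of 0.169, which stayed over the threshold in all 18 alternatives. The index was 0.28 when scaled to list totals.

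Lefty2 carried its strongest peaks on the upstream flank. The region 4.2 kb upstream (chr1:180888161-180889600) had a fold of 5.81 in MEF replicate 1 and no peak in MEF replicate 2. It then had 7.05 and 8.52 for DAY3, 12.1 and 12.9 for DAY6, 11.6 and 11.2 for DAY9, and 11.6 and 8.71 for ESC. The region 19.2 kb upstream (chr1:180873326-180874459) followed a similar course: 3.54 in MEF replicate 1 only, 3.93 and 3.60 for DAY3, 7.41 and 6.67 for DAY6, 11.02 and 10.0 for DAY9, and 7.09 and 8.56 for ESC. Because MEF replicate 1 had a peak at both, neither counted as gained, although the deeper MEF replicate 2 had none. With lists of equal length the region at 19.2 kb did count as gained, and the one at 4.2 kb did not.

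Other Lefty2 regions appeared in steps. The region 4.1 kb downstream of the gene (chr1:180902830-180903505) was gained at DAY6, with folds of 5.37 and 6.18, then 8.35 and 8.47 for DAY9 and 5.69 and 4.54 for ESC. It was gained with equal lists too. A region inside the gene, 1.3 kb after the start, was open only in ESC, at 4.11 and 3.58, with a peak of 3.04 in DAY9 replicate 2. With equal lists that region was open at no stage. A region 7.2 kb upstream was transient, at 3.79 in DAY6 replicate 2 and 4.22 and 4.25 for DAY9. No peak lay over the Lefty2 start itself in any library.

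Lefty1 had a peak upstream of its start from DAY3. A region 1.9 kb inside the gene was already open in MEF, at folds of 5.92 and 4.40, and was listed in 9 of 10 libraries. The upstream region (chr1:180933455-180935141) had no peak in MEF and folds of 3.92 and 4.14 for DAY3, 5.26 and 5.00 for DAY6, 3.73 and 4.30 for DAY9, and 4.12 and 3.91 for ESC. In each of the 8 libraries a peak lay upstream and ended 434 to 984 bp before the start. In ESC replicate 2 that peak had a fold of 2.82, and the stronger one, at 3.91, ended 109 bp before the start. Only a second peak in DAY9 replicate 1 crossed it. With equal lists the region was open at DAY3 and DAY6 but not in ESC. The base pairs within 30 kb of Lefty1 were 4053 and 3029 for MEF, 3111 and 2530 for DAY3, 3505 and 3273 for DAY6, 4636 and 4638 for DAY9, and 3117 and 5079 for ESC, so that the MEF and ESC ranges overlapped. The trend index was 0.360, with p = 0.323 in the exact permutation test and an adjusted p of 0.545, and the index turned to -0.68 with equal lists and to -0.12 when scaled.

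Between the Lefty genes an element was lost and another gained. The lost one lies 21.0 kb upstream of Lefty1 and 14.9 kb downstream of Lefty2 (chr1:180913696-180914370). Its fold was 11.5 and 6.90 for MEF and 3.17 and 3.83 for DAY3, and no later library had a peak there. The gained one lies 10.0 kb upstream of Lefty1 and 25.9 kb downstream of Lefty2 (chr1:180924551-180925480). It appeared at DAY9, with folds of 3.48 and 4.54, and was higher in ESC, at 9.04 and 8.17. Both changes between MEF and ESC were also called with equal lists, but the gained element was then open in ESC only. Another region between the genes, 23.4 kb upstream of Lefty1, was open at DAY6 and DAY9, at folds of 3.91 to 5.37, and had a peak in MEF replicate 1 and ESC replicate 2 as well. Downstream of Lefty1, 2 regions in Tmem63a, at 4.1 and 7.3 kb, had a peak in all 10 libraries.

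**Figure D4:**
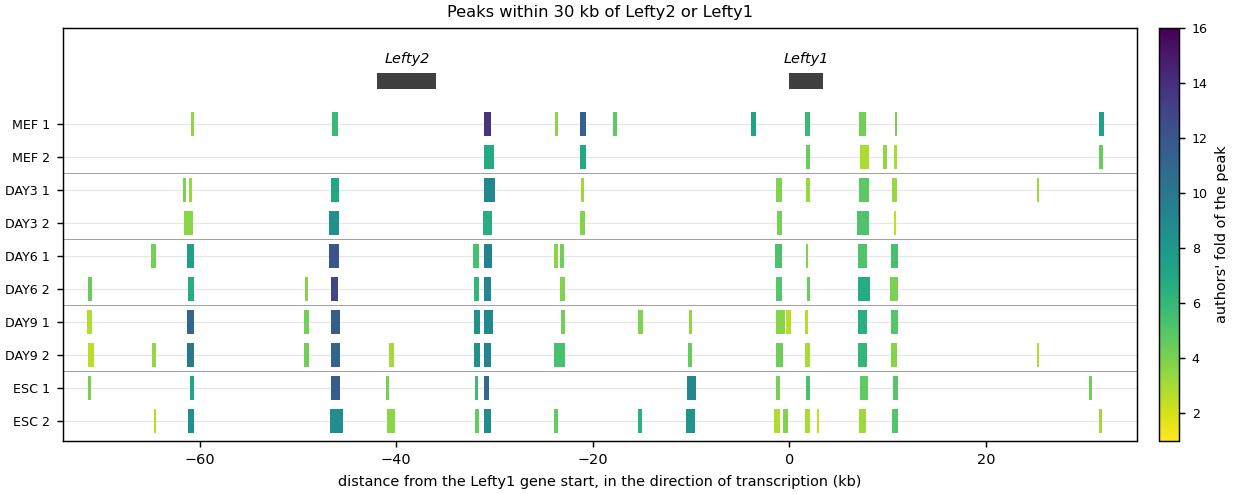
Peaks within 30 kb of Lefty2 or Lefty1 in each of the 10 libraries (rows), by distance from the Lefty1 start (x axis, kb), coloured by the authors' fold, with both genes as dark bars. The peak 21.0 kb upstream of Lefty1 is listed in MEF and DAY3 only, and the peak 10.0 kb upstream in DAY9 and ESC only.

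Cer1, a secreted antagonist that binds Nodal and marks anterior endoderm in the embryo, lies at chr4:82881751-82885151 (mm10, minus strand) and had the fewest peaks. No peak lay over its start or inside it, and 4 regions in all were found within 30 kb. The clearest change was 9.4 kb downstream of the gene (chr4:82871968-82872659), which had no peak in MEF or DAY3. It had folds of 11.2 and 7.82 for DAY6 and 11.0 and 12.3 for DAY9, no peak in ESC replicate 1 and a weak one of 2.94 in ESC replicate 2, which keeps it out of the transient class. The other region open at a stage, 22.3 kb downstream, is the start of Zdhhc21 and had a peak in all 10 libraries, at folds of 4.29 to 12.6. The remaining 2 were listed in MEF replicate 1 alone, at 10.6 kb downstream and 6.1 kb upstream. Base pairs under peaks were 1606 and 612 for MEF, 571 and 672 for DAY3, 1298 and 1182 for DAY6, 1736 and 1420 for DAY9, and 830 and 1353 for ESC. The trend index was 0.200 with p = 0.625 in the exact permutation test (adjusted p = 0.782).

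Smad7, the inhibitor of the receptors, lies at chr18:75367365-75395935 (mm10, read as plus strand) and was open in fibroblasts already. It had the most regions of the 7 genes, 25, of which 12 were seen in 1 library only. Base pairs under peaks were 8500 and 7313 for MEF, 5723 and 4971 for DAY3, 4859 and 4853 for DAY6, 5380 and 6020 for DAY9, and 6893 and 6515 for ESC. Both MEF libraries were above all others, and both ESC libraries above those of DAY3, DAY6 and DAY9. Its trend index was -0.120, with p = 0.807 in the exact permutation test (adjusted p = 0.899). The value changed with the handling of list length: it was -0.84 with equal lists (adjusted exact p = 0.102) and -0.76 when scaled to list totals (0.134), and the adjusted p ran from 0.102 to 1.0 over 18 alternatives.

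The Smad7 start had a peak in all 10 libraries, with folds of 5.25 and 4.04 for MEF, 4.18 and 4.01 for DAY3, 6.54 and 5.38 for DAY6, 6.82 and 5.97 for DAY9, and 8.69 and 4.40 for ESC. The ESC libraries lay far apart, so the stages overlapped. Regions 24.5 kb upstream and 9.9 kb downstream were in all libraries too. An element 6.4 kb upstream of Smad7 (chr18:75360612-75361381) was gained at DAY3, with folds of 4.68 and 6.42, then 11.4 and 9.58 for DAY6, 8.79 and 8.70 for DAY9, and 4.68 and 7.52 for ESC. An element 13.0 kb inside the gene was gained at DAY9, at 6.59 and 6.37, and had 12.2 and 3.54 for ESC. With equal lists neither counted as gained, since neither was then open in ESC.

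The Smad7 regions lost were 19.0 kb and 25.1 kb inside the gene and 9.2 kb downstream. The first had folds of 7.50 and 5.07 for MEF and 3.91 to 4.96 in DAY3 and DAY6, a single peak of 3.55 in DAY9 replicate 2 and none in ESC. The second was in MEF alone, at 5.33 and 3.30, as was the one downstream, at 3.69 and 3.06. With equal lists the one downstream was open at no stage, while the regions lost inside the gene were lost there too. A region 13.5 kb upstream had 8.26 and 5.15 for MEF and then only 4.24 in ESC replicate 1. A region 20.1 kb inside the gene, next to the lost one at 19.0 kb, was open from MEF to DAY9, with a lowest fold of 2.44 in MEF replicate 2 and a highest of 9.60 in DAY6 replicate 2, and had 3.27 in ESC replicate 1.

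Skil, which encodes the SMAD corepressor SnoN, lies at chr3:31095058-31122923 (mm10, read as plus strand) and kept an open start throughout. The fold at the start was 8.23 and 7.30 for MEF, 7.24 and 5.81 for DAY3, 9.24 and 8.66 for DAY6, 9.70 and 9.55 for DAY9, and 9.39 and 6.06 for ESC. Upstream of it, different elements were listed at different stages. The one at 10.5 kb was in MEF alone, at 4.76 and 2.91, and with equal lists it was open at no stage. The one at 7.4 kb (chr3:31087222-31088080) was transient, with 3.71 in DAY3 replicate 2, 3.70 and 5.59 for DAY6 and 9.40 and 10.4 for DAY9. With equal lists that element was open at DAY9 only. The one at 5.7 kb (chr3:31088882-31089770) was in ESC alone, at 5.42 and 4.35, and was the 1 region Skil gained, with equal lists too.

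Skil lost 2 regions besides the one at 10.5 kb. The region 14.3 kb inside the gene (chr3:31108955-31109694) had 13.0 and 4.93 for MEF, none and 3.51 for DAY3, 4.49 and 6.91 for DAY6, none and 2.72 for DAY9, and none in ESC. The region 6.8 kb downstream was in MEF alone, at 5.32 and 3.22. A weak transient region 15.4 kb inside the gene had 3.60 and 3.58 for DAY9. The region 23.1 kb downstream had a peak in all 10 libraries. Base pairs under peaks were 5759 and 4104 for MEF, 2940 and 4214 for DAY3, 4816 and 3759 for DAY6, 5110 and 5407 for DAY9, and 4272 and 3547 for ESC, and the stages overlapped. Its trend index was -0.200 with p = 0.625 in the exact permutation test (adjusted p = 0.782). Scaled to list totals it was -0.84 (adjusted exact p = 0.0963), and with equal lists it was 0.12. The adjusted p ran from 0.0963 to 1.0 over 18 alternatives.

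**Figure D5:**
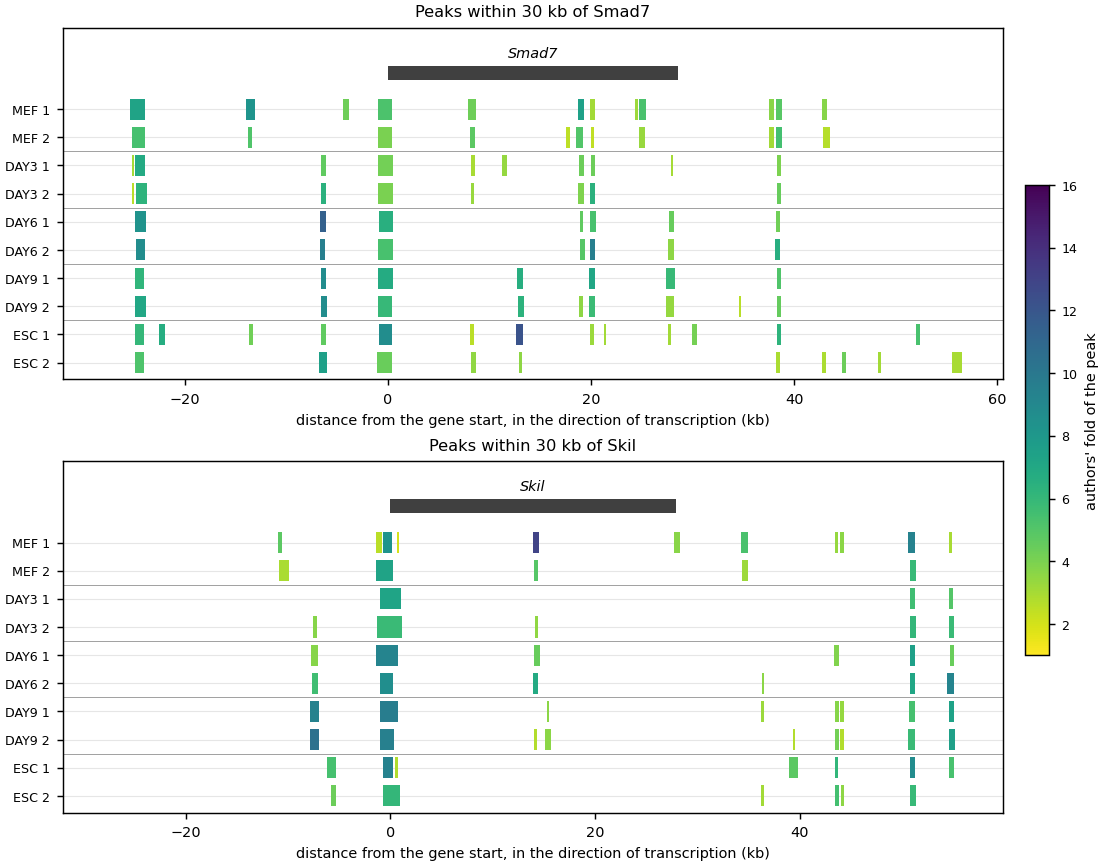
Peaks within 30 kb of Smad7 and Skil in each of the 10 libraries (rows), by distance from the gene start (x axis, kb), coloured by the authors' fold, with the gene as a dark bar. Both starts have a peak in all 10 libraries. Upstream of Skil, the full lists hold an element at 10.5 kb in MEF and at 5.7 kb in ESC. Another at 7.4 kb is in DAY3 replicate 2, DAY6 and DAY9.

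A further 34 genes of the pathway were taken from a list of convertases, ligands, receptors, effectors, inhibitors and targets. One of the 34, Cfc1, had a higher trend and none a lower one, beside 3.81% and 0.190% of all genes, and the median index of the 34 was 0.32, the same as over all genes. Cfc1 encodes Cryptic, a co-receptor of the same family as Tdgf1. It had 0 bp under peaks in MEF and DAY3, 22 and 859 for DAY6, 1729 and 1485 for DAY9, and 2778 and 2377 for ESC, with 4 of its 8 regions gained, beside 14.7% of regions in general. The trend index of Cfc1 was 0.920, with p = 0.00119 in the exact permutation test and an adjusted p of 0.0496. This call lies at the threshold: over 18 alternatives the adjusted p ran from 0.00874 to 0.129, and in 15 of them it was not past 0.05.

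By group, the other ligands Gdf1, Gdf3, Inhba and Inhbb had a median index of 0.6 and 0 of 4 called. The receptors had 0.24 (0 of 4), the convertases 0.12 (0 of 2), the inhibitors and corepressors 0.2 (0 of 11) and the targets 0.52 (0 of 5). The effectors had 0.36 with 0 of 5 called. Among them Smad3, a signal transducer of the pathway, had an index of -0.680 (p = 0.0385 in the exact permutation test, adjusted p = 0.169), with 8 of its 24 regions lost in ESC and 1 gained, beside 10.8% and 14.7% in general. Its base pairs under peaks were 6160 and 5830 for MEF and 2537 and 1167 for ESC. Among the inhibitors, Drap1 had the same index and the same p-values, with 3 of its 7 regions lost and 0 gained. Smad3 and Drap1 were picked out after their values were seen. Gdf3, Eomes and Ppm1a had stronger uncalled trends in the other direction. Each had an index of 0.840 (p = 0.00675 in the exact permutation test, adjusted p = 0.0755).

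For each gene, the protein-coding gene at least 1 Mb away or on another chromosome with the most similar base pairs under peaks over the 10 libraries was sought, as a description in which all points share library depth. Tdgf1 was most like Mfsd4b5 (Pearson r = 0.992), and 1351 genes had an r of 0.9 or more with it. Nodal was most like Cdca7 (0.975, with 324 such genes), Lefty2 like Kif16b (0.985, with 272) and Lefty1 like Tmem248 (0.962, with 101). Cer1 was most like Cd207 (0.974, with 58), Smad7 like Cmklr1 (0.972, with 156) and Skil like Trnau1ap (0.961, with 26). The course of Tdgf1 was thus shared by the most genes and that of Skil by the fewest of the 7.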

How the data were processed

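ATAC-seq peak lists of 10 mouse libraries were used, 1 per library and not pooled. The submitters' processing notes name Bowtie2 2.3.2, MACS2 2.1.1, deepTools 2.3.6 and mm10, without a role. The handling of duplicate reads and of the transposase offset is not given in the sources used here. The authors deposited for each peak a score, a fold (the linear ratio of its summit to the background around it) and −log10 values of p and q, and the lowest −log10 p was 5. Summit pileups were recovered from fold and −log10 p where the latter was at most 300, within a tolerance of 0.01. Folds were not scaled between lists, so their comparison is descriptive.

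Gene positions came from RefSeq (GRCm38.p6) and strand from its promoter table for Nodal, Tdgf1 and Cer1. For the other 4 genes the strand was taken as background knowledge, and it sets which side is called upstream. Distances run from the middle of a region to the nearer end of the gene, or inside a gene from its start. Overlapping peaks (1 bp) of all libraries were merged. The noise ratio compared shared summits of 100 to 200 fragments within a stage, and pairs under 2 were averaged, leaving 8 samples and 5040 arrangements with a smallest p of 0.000397. Trends were tested over 21063 of 21887 protein-coding genes (824 had no peak) with Benjamini-Hochberg adjustment. The p-values cover the spread between these libraries.

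All 7 genes are named. Regions open at a stage are described first at the start, then where MEF and ESC differ. The genes, lists and motifs were chosen with earlier results of these data known, and values at the pathway and marker genes support nothing by themselves. The scripts were tested on simulated data. Python 3.11.15, NumPy 2.4.6, pandas 2.3.3, SciPy 1.17.1 and matplotlib 3.10.9 were used. Alternatives varied the measure, list length, scaling, window, merging, overlap, score and libraries.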

Additional observations from a re-analysis of the deposited data

How the results depend on the processing

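The number of genes with a trend in the exact Jonckheere-Terpstra permutation test (843, of which 803 higher and 40 lower) depended on the setting. It was 0 with the number of peaks in place of base pairs, 197 (146 higher and 51 lower) with equal lists, 199 (58 higher and 141 lower) after scaling to list totals, 189 with a 10 kb window and 2506 with all 10 libraries counted separately. Leaving out 1 library gave 0 to 718 genes: 0 without MEF replicate 2, either DAY6 or either ESC library, and 204 to 236 without any 1 library of DAY3 or DAY9. The 718 genes were those without MEF replicate 1. Leaving out a MEF, DAY6 or ESC library leaves fewer samples and so fewer arrangements. Leaving out a DAY3 or DAY9 library does not, since each of those pairs counts as 1 sample. The cause of these differences was not tested. Replicate numbers did not pair the libraries (same-numbered deviations correlated at -0.042 to 0.036 over 10 pairs of stages), and with a replicate block 1262 genes had a trend.

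None of the 7 genes passed in the main test. With libraries counted separately 2 did (Nodal and Tdgf1, adjusted exact p = 0.0190 for each), as did 2 with the replicate block (0.0420 and 0.0324), and leaving out a library gave 0 to 1, the 1 being Tdgf1 without MEF replicate 1. The trend index changed sign, never with a call, for Cer1 (0.200) at -0.04 with peak number, -0.2 when scaled, -0.053 without MEF replicate 2 (up to 0.579 without another library) and -0.08 without peaks at ends of other genes. It did for Skil (-0.200) at 0.2 with peak number, 0.12 with equal lists and 0.053 without MEF replicate 1 or ESC replicate 2 (down to -0.263 without another), while it was -0.84 when scaled. It did for Lefty1 (0.360) at -0.68 with equal lists and -0.12 when scaled, and for Smad7 (-0.120) at 0.04 with a 100 kb window and 0.158 without either MEF library (down to -0.263 without another), while it was -0.84 with equal lists and -0.76 when scaled. Over the 7 genes and Cfc1, 129 of 144 index values under alternatives kept their sign, 13 changed it and 2 were at 0. The cause was not tested.

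Gained regions (14) numbered 7 with equal lists, 8 with scores at or above the median, 34 with a 100 kb window and 33 when 1 library of a stage sufficed. Leaving out 1 library gave 13 to 25, with 23 without ESC replicate 1 and 25 without ESC replicate 2. Lost regions (7) numbered 19 with a 100 kb window and 19 when 1 library sufficed, and leaving out 1 library gave 7 to 17, with 17 without MEF replicate 2. A rule of 50% overlap with peak or region was met by construction, and a rule of 50% of the region covered was added after seeing the data, as was leaving out peaks at ends of other genes. The lists hold no reads below the caller's threshold, so depth limits every absence, most in DAY6 replicate 2.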
